A study of Mus musculus with 8 samples.

Results

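The Dlx genes were followed in the vagal region of the mouse embryo on embryonic day 9.5, the stretch of the body beside somites 1 to 7. The 6 members, Dlx1 to Dlx6, were taken by gene symbol from a table of 55421 gene identifiers. They were compared by genomic pair, Dlx1 with Dlx2, Dlx3 with Dlx4 and Dlx5 with Dlx6. RNA was sequenced from 4 Rdh10(trex/trex) mutant samples, called trex, and 4 wt samples, all at E9.5 and with no other allele or treatment named in the labels. The wt replicates 1 to 4 are numbered 5 to 8 in the labels, so a number shared with a trex replicate pairs nothing. Rdh10 encodes a retinol dehydrogenase of retinoic acid synthesis, and the trex genotype was homozygous. The labels give neither the strain nor whether a sample was 1 embryo or a pool, so the spread behind each p-value may be technical in part.

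Dlx genes encode homeobox transcription factors, the vertebrate relatives of Drosophila Distal-less. In mammals they lie in linked pairs whose members face each other and share enhancers, each pair on the chromosome of a Hox cluster. In the pharyngeal arches, the segmented swellings that build the jaw, neck and hyoid skeleton, Dlx1 and Dlx2 are known to be expressed along the whole dorsoventral length of the crest-derived mesenchyme. Dlx5 and Dlx6 are known from its ventral part, and Dlx3 and Dlx4 from the most ventral part. Endothelin 1 from the arch ectoderm, acting through the receptor Ednra on crest cells, is known to be needed for Dlx5, Dlx6 and Hand2 expression in the ventral mouse arch. Dlx3, Dlx5 and Dlx6 are also known from surface ectoderm, the otic placode and the apical ridge of the limb bud, and Dlx1, Dlx2, Dlx5 and Dlx6 from the forebrain.

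Levels are given in TPM, a transcript abundance scaled by gene length and library total. Genes with a mean of at least 1 TPM over the 8 libraries were tested with limma on log2(TPM + 1), and a gene was called at a Benjamini-Hochberg adjusted p below 0.05. Of 15717 tested genes, 1369 (8.71%) were called, 777 higher (4.94%) and 592 lower (3.77%) in trex, with a median log2 difference of 0.04 over all tested genes. Between 20928981 and 23648646 reads per library could be recovered from the values. Rdh10 itself held 106, 66.2, 62.7 and 69.0 TPM in trex libraries, against 40.96, 36.3, 40.3 and 37.6 TPM in wt libraries, so its RNA does not serve as a check of the mutation. Y-linked transcripts summed to at most 0.0662 TPM in the 4 trex libraries and wt replicates 1 and 4, and to 162 and 158 TPM in wt replicates 2 and 3. High Y-linked levels thus occurred in wt only, so sex and genotype are in part confounded. Mitochondrial genes took 2.61% to 7.15% of the TPM in trex and 6.73% to 7.95% in wt. In tissue libraries such as these, fewer cells of a type and less RNA per cell cannot be told apart.

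The members are told apart in sequencing by where their coding sequences differ. The homeobox, 180 coding bases that each gene splits over exons 2 and 3, is the conserved stretch of the family, and it is shown because reads falling there are those closest to a paralog. The sequences come from GENCODE M21 transcripts (GRCm38, the assembly of mm10) and are read 5′ to 3′ on the coding strand. Capitals mark runs of at least 5 bases that are identical in all 6 genes.
Dlx1: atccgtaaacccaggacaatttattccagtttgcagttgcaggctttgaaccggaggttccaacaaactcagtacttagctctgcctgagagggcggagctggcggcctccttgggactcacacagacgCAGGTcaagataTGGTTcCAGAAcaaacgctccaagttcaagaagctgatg
Dlx2: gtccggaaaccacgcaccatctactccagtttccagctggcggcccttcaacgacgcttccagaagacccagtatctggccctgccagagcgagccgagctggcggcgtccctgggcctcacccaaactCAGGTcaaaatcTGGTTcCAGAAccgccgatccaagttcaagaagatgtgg
Dlx3: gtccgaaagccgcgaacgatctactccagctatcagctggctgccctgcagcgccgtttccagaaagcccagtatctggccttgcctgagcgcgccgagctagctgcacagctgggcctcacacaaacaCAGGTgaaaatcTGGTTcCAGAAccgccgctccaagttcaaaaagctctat
Dlx4: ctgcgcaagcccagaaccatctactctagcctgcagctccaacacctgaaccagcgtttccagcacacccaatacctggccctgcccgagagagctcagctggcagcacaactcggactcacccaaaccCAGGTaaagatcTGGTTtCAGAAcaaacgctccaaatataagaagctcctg
Dlx5: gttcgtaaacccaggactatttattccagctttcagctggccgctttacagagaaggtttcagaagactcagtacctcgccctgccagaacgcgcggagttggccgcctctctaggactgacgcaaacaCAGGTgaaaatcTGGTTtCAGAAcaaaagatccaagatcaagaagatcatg
Dlx6: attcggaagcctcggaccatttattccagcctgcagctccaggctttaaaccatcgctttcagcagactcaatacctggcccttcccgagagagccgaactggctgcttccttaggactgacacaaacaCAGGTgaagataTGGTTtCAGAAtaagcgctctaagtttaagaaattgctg
With the intron included, the homeoboxes span chr2:71531025-71532311 (plus strand) for Dlx1, chr2:71544877-71545515 (minus strand) for Dlx2, chr11:95121767-95123456 (plus strand) for Dlx3, chr11:95141422-95141920 (minus strand) for Dlx4, chr6:6878441-6879657 (minus strand) for Dlx5 and chr6:6865140-6867088 (plus strand) for Dlx6. Across the 6 genes, 92 of the 180 bases were identical in every member. Between genes of a genomic pair the identity was 71.7% to 73.9%, and between genes of the same subfamily on different chromosomes (Dlx1, Dlx4 and Dlx6, or Dlx2, Dlx3 and Dlx5) it was 71.7% to 81.7%. Between genes that were neither paired nor of the same subfamily it was 66.1% to 76.1%, so the 3 ranges overlapped. The closest were Dlx2 and Dlx3, at 81.7%. The longest run of bases shared exactly by any of these gene pairs over their whole transcripts was 23 bases. The sources used here do not give the read length or the handling of reads that map to several places, so how far reads were shared between members was not tested.

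Dlx5 was the one Dlx gene called by the test across all genes. It rose in trex, Dlx3 and Dlx6 had higher means in trex without passing the test, Dlx1 and Dlx2 had lower means in trex without passing it, and Dlx4 was near the limit of detection in both groups. Thus 1 of the 5 tested members was called, against 8.71% of all tested genes. The trex and wt ranges did not overlap for 2 of the 5, Dlx5 and Dlx1, against 21.8% of all tested genes, 12.9% with trex higher and 8.95% with trex lower. Nothing particular to the family is read from these counts.

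**Figure D1:**
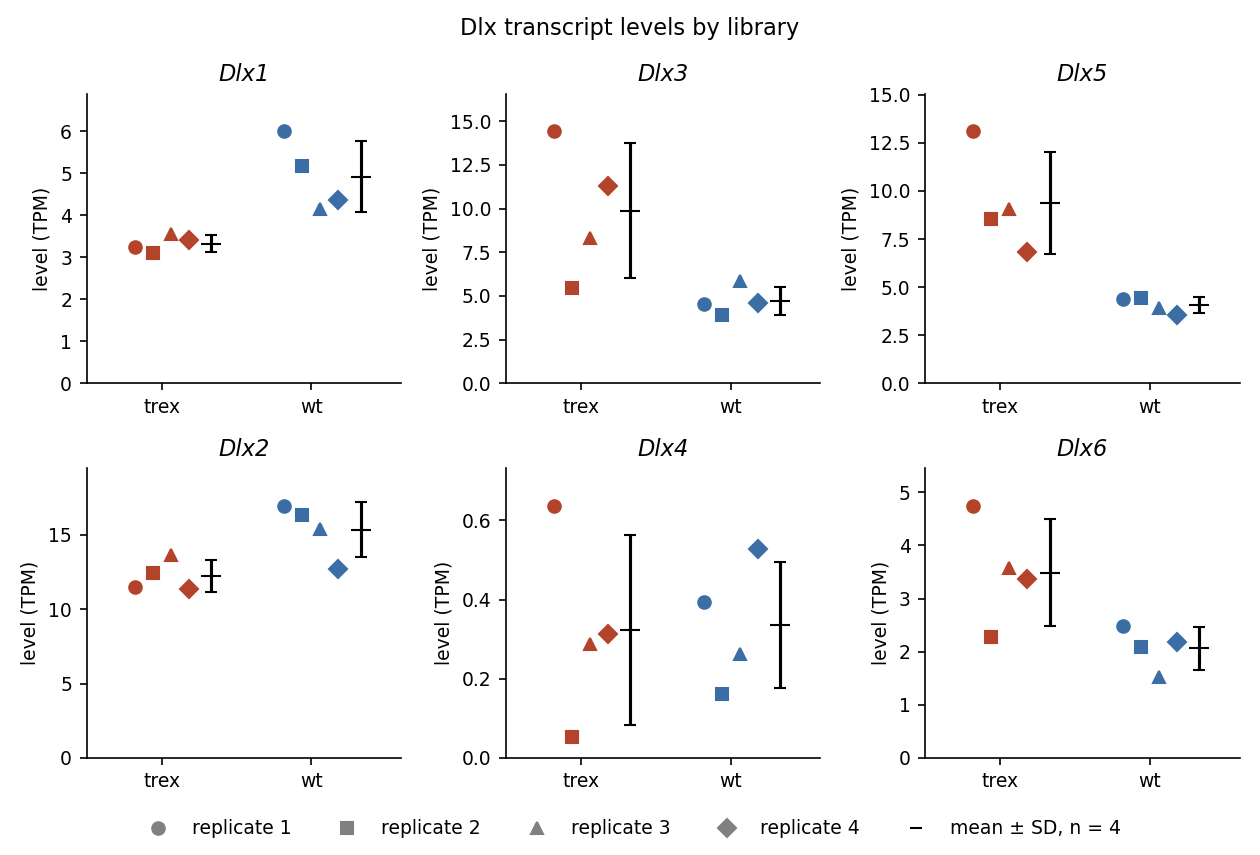
Level in TPM of each Dlx gene (vertical axes, each from 0) in the 4 trex libraries (red) and the 4 wt libraries (blue), with mean and SD beside the points and a symbol for each replicate number. Dlx1 and Dlx5 show no overlap between the genotypes, and trex replicate 1 is the highest library for Dlx3, Dlx4, Dlx5 and Dlx6.

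Dlx1 (ENSMUSG00000041911, mm10 chromosome 2, 71528113 to 71533981, plus strand) and Dlx2 (ENSMUSG00000023391, chromosome 2, 71543408 to 71546754, minus strand) act together in the dorsal arches and in forebrain interneurons. Dlx1 held 3.24, 3.09, 3.56 and 3.41 TPM in trex libraries, against 6.002, 5.16, 4.16 and 4.37 TPM in wt libraries. Every trex library lay below every wt library, and the trex values were the tighter set. The means were 3.33 ± 0.204 TPM in trex libraries and 4.92 ± 0.840 TPM in wt libraries (SD, n = 4 each), so that trex stood at 0.676 of wt. The log2 difference of -0.44 ± 0.13 (SE) gave adjusted p = 0.0648 in limma and 0.0286 by exact two-sided permutation, the smallest that 4 against 4 allows. Dlx1 was therefore not called, and it was not called without any single library (adjusted p up to 0.175). Array weights, median-of-ratios or quantile scaling, a fit with no variance trend and voom on recovered reads each called it (adjusted p = 0.0219 to 0.0466 in limma). The values rested on 96 to 108 reads in trex and 131 to 176 reads in wt.

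Dlx2 was the most abundant member per length in both genotypes. It held 11.5, 12.4, 13.7 and 11.3 TPM in trex libraries, against 17.0, 16.3, 15.4 and 12.7 TPM in wt libraries. The ranges overlapped through wt replicate 4, the lowest wt library, and trex replicate 3, the highest trex library. Its means of 12.2 ± 1.08 TPM in trex libraries and 15.3 ± 1.86 TPM in wt libraries (SD, n = 4 each) gave a log2 difference of -0.30 ± 0.10 (SE), adjusted p = 0.104 in limma and 0.0571 by exact permutation.

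Dlx3 (ENSMUSG00000001510, chromosome 11, 95120119 to 95125296, plus strand), a gene of the ventral arches, the epidermis and the placenta, varied widely among trex libraries. It held 14.4, 5.47, 8.32 and 11.3 TPM in trex libraries, against 4.52, 3.92, 5.85 and 4.62 TPM in wt libraries. Trex replicate 2 lay within the wt range and the other 3 trex libraries lay above it. The means were 9.88 ± 3.86 TPM in trex libraries and 4.73 ± 0.807 TPM in wt libraries (SD, n = 4 each), a ratio of 2.09. The log2 difference of 0.86 ± 0.25 (SE) gave adjusted p = 0.0669 in limma and 0.0571 by exact permutation. Without trex replicate 2 the difference was 1.09, with an adjusted p of 0.0112 in limma. Without each other single library Dlx3 stayed uncalled (adjusted p up to 0.175 in limma). Leaving out trex replicate 2 also raised the calls over all genes, from 1369 to 2911.

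Dlx4 (ENSMUSG00000020871, chromosome 11, 95140447 to 95146263, minus strand), its partner, fell under the limit for testing. It was covered by 12, 1, 5 and 6 reads in trex libraries, against 7, 3, 5 and 10 reads in wt libraries. Its levels of 0.636, 0.0532, 0.288 and 0.313 TPM in trex overlapped throughout with the 0.394, 0.162, 0.262 and 0.526 TPM in wt (exact two-sided permutation p = 0.886). A difference of Dlx4 was not detectable at this depth.

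Dlx5 (ENSMUSG00000029755, chromosome 6, 6877805 to 6882085, minus strand) acts with Dlx6 in the lower jaw, and also in the otic vesicle and in bone. It held 13.1, 8.52, 9.08 and 6.85 TPM in trex libraries, against 4.39, 4.44, 3.94 and 3.57 TPM in wt libraries. The lowest trex library stood above the highest wt library. Dlx5 averaged 9.39 ± 2.65 TPM in trex libraries and 4.09 ± 0.410 TPM in wt libraries (SD, n = 4 each), 2.30-fold higher in trex. Its log2 difference of 1.00 ± 0.17 (SE) gave adjusted p = 0.0149 in limma and 0.0286 by exact permutation, with all 4 trex libraries higher. The values rested on 91 to 171 reads in trex and 47 to 57 reads in wt.

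The call on Dlx5 was lost without wt replicate 2 and held without each other single library, while the log2 difference ran from 0.84 to 1.12. Without wt replicate 2 the log2 difference was 1.03, with an adjusted p of 0.0538 in limma. The log2 difference was also 1.03 with sex as a covariate (adjusted p = 0.114 in limma) and in the 6 libraries low in Y-linked transcripts alone (adjusted p = 0.213 in limma). Calls over all genes fell in the same fits, from 1369 to 201 without wt replicate 2, 39 with sex as a covariate and 8 in the 6 libraries. The wt libraries with Y-linked transcripts, replicates 2 and 3, held 4.44 and 3.94 TPM of Dlx5, and the other wt libraries 4.39 and 3.57 TPM.

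Dlx6 (ENSMUSG00000029754, chromosome 6, 6863334 to 6868568, plus strand) held 4.74, 2.27, 3.57 and 3.37 TPM in trex libraries, against 2.48, 2.08, 1.51 and 2.17 TPM in wt libraries. As for Dlx3, trex replicate 2 lay within the wt range and the other 3 trex libraries above it. The means of 3.49 ± 1.01 TPM in trex libraries and 2.06 ± 0.403 TPM in wt libraries (SD, n = 4 each) gave a ratio of 1.69. The log2 difference of 0.53 ± 0.19 (SE) gave adjusted p = 0.112 in limma and 0.0571 by exact permutation. Without trex replicate 2 it was 0.68, with an adjusted p of 0.0325 in limma. Without each other single library Dlx6 stayed uncalled (adjusted p up to 0.242 in limma).

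Because TPM is scaled per length, the members can also be ranked within a genotype, but the order depends on the annotated exonic length. This length is 5396 bases for Dlx1 and 2375 bases for Dlx6. In trex Dlx1 had 96 to 108 reads and Dlx6 31 to 65 reads, although Dlx6 ranks higher in TPM. In trex the order of mean levels was Dlx2, Dlx3, Dlx5, Dlx6, Dlx1 and Dlx4, and neighbours in this order overlapped in range except at the steps from Dlx5 to Dlx6 and from Dlx1 to Dlx4. In wt the order was Dlx2, Dlx1, Dlx3, Dlx5, Dlx6 and Dlx4, and among neighbours Dlx1 overlapped with Dlx3 and Dlx3 with Dlx5, but no others did. Dlx1 was thus the fifth member in trex and the second in wt, but in wt its level could not be told apart from that of Dlx3.

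The summed level of the 6 genes was 31.8 to 47.6 TPM in trex and 28.0 to 34.7 TPM in wt, with overlapping ranges. The makeup of this sum differed. Dlx1 and Dlx2 together made up 30.9% to 48.7% of it in trex and 61.1% to 66.9% in wt, without overlap. The summed level of these 2 genes itself overlapped, at 14.7 to 17.2 TPM in trex and 17.1 to 23.0 TPM in wt, so their share also moved with the other members in the sum. Dlx5 and Dlx6 made up 27.9% to 37.5% in trex and 17.5% to 20.5% in wt, also without overlap, and their summed level was 10.2 to 17.8 TPM in trex and 5.45 to 6.87 TPM in wt. The share of Dlx3 and Dlx4 was 17.3% to 31.8% in trex and 12.7% to 19.6% in wt, and these ranges overlapped.

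**Figure D2:**
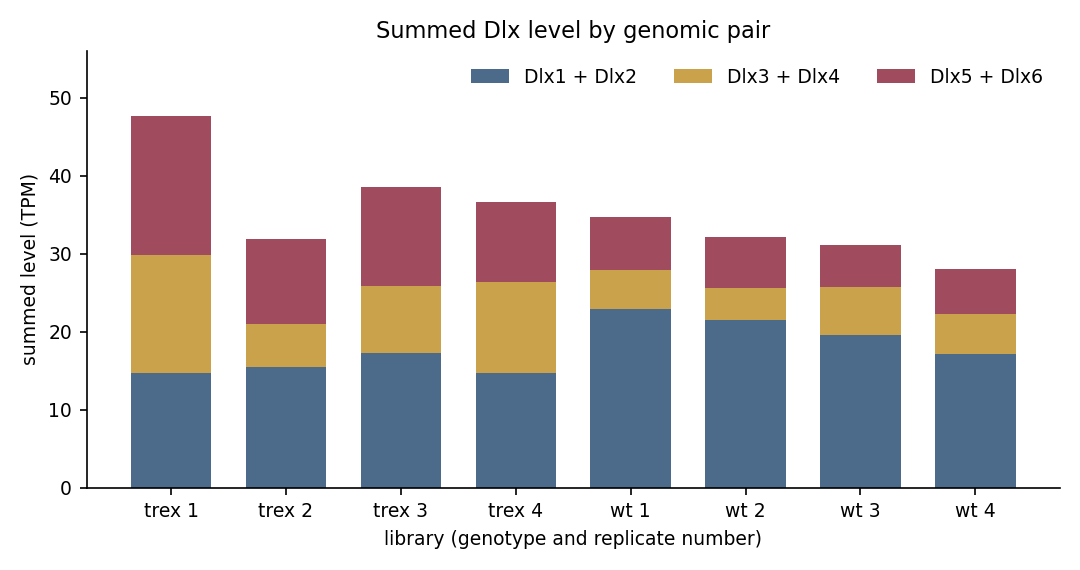
Summed TPM of the 6 Dlx genes in each library, stacked by genomic pair, with the 4 trex libraries left of the 4 wt libraries. The Dlx1 and Dlx2 segment is 30.9% to 48.7% of the sum in trex libraries and 61.1% to 66.9% in wt libraries.

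Differences of log2(TPM + 1) within each library tested whether the pairs, and the members of a pair, differed in their change. The mean of Dlx5 and Dlx6 minus that of Dlx1 and Dlx2 was 0.31, -0.41, -0.27 and -0.33 in trex libraries, against -1.37, -1.34, -1.39 and -1.17 in wt libraries. The trex values lay well above all wt values, by 1.14 on average. The exact two-sided permutation p was 0.0286, which became 0.0571 after Benjamini-Hochberg adjustment over the 6 differences tested. Since 0.0286 is the smallest p of a 4 against 4 design, no difference here could pass a threshold of 0.05 after adjustment unless more of the 6 had reached it.

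Dlx3 and Dlx4 minus Dlx1 and Dlx2 lay between -1.51 and -0.53 in trex and between -2.11 and -1.55 in wt, a mean difference of 0.79 (exact permutation p = 0.0286, adjusted 0.0571). These ranges did not overlap but lay close together, and with a pseudocount of 0.1 the exact permutation p was 0.143. Dlx5 and Dlx6 minus Dlx3 and Dlx4 overlapped between the groups, with a mean difference of 0.35 (exact permutation p = 0.114, adjusted 0.137).

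Within pairs, Dlx1 over Dlx2 overlapped between the genotypes, at -1.71 to -1.48 in trex and -1.67 to -1.35 in wt (difference -0.14, exact permutation p = 0.143, adjusted 0.143). Dlx5 over Dlx6 also overlapped, at 0.84 to 1.54 in trex and 0.53 to 0.97 in wt (difference 0.47, exact permutation p = 0.0571, adjusted 0.0857). Dlx3 over Dlx4 lay at 2.62 to 3.24 in trex and 1.88 to 2.44 in wt (difference 0.89, exact permutation p = 0.0286, adjusted 0.0571). These ranges are separate although those of Dlx3 alone overlap, because the library pair nearest to each other, trex replicate 2 and wt replicate 3, had 1 and 5 reads of Dlx4. The separation thus rests on a few Dlx4 reads and is not read as a difference between the members of this pair. None of the 6 passed 0.05 after adjustment.

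**Figure D3:**
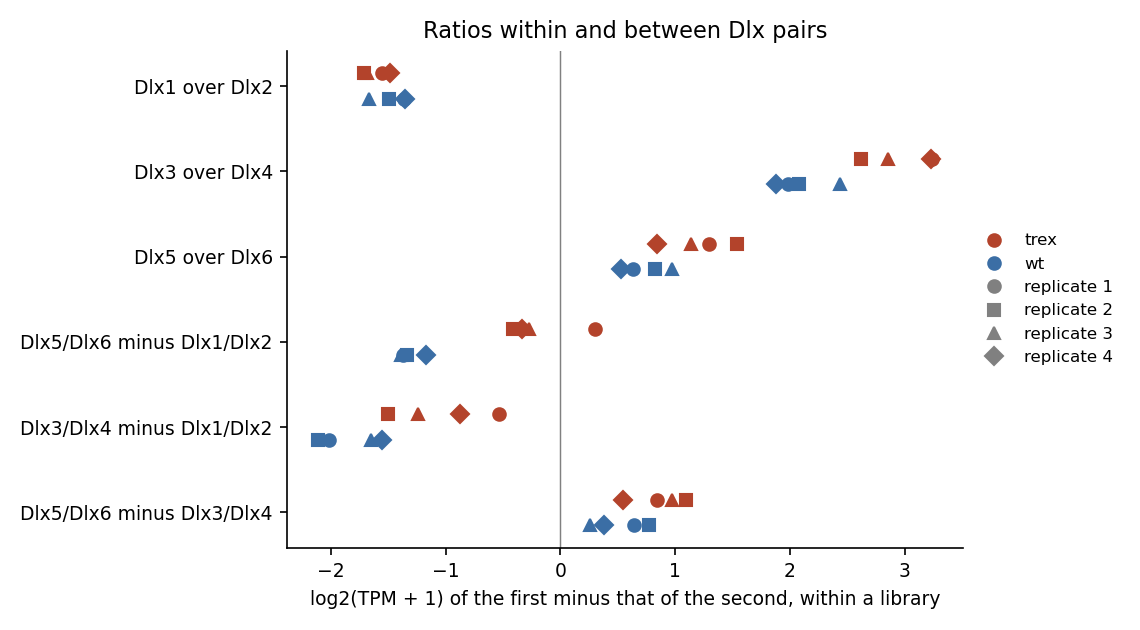
Difference in log2(TPM + 1) between members of a pair (upper 3 rows) and between pair means (lower 3 rows) within each library, with the trex libraries in red above the wt libraries in blue and a symbol for each replicate number. Trex and wt are separate for Dlx3 over Dlx4, where Dlx4 had 1 to 12 reads, for Dlx5/Dlx6 minus Dlx1/Dlx2 (-0.41 to 0.31 in trex and -1.39 to -1.17 in wt) and for Dlx3/Dlx4 minus Dlx1/Dlx2.

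The members of each pair lie 9426 bp (Dlx1 and Dlx2), 15150 bp (Dlx3 and Dlx4) and 9236 bp (Dlx5 and Dlx6) apart, and antisense genes are annotated over Dlx1, Dlx4 and Dlx6. Dlx6os1, also known as Evf2, a noncoding RNA of the Dlx5 and Dlx6 locus on the strand opposite to Dlx6 (ENSMUSG00000090063, chromosome 6, 6820189 to 6871592, minus strand), held 0.838, 0.873, 1.02 and 0.889 TPM in trex libraries, against 0.462, 0.443, 0.232 and 0.432 TPM in wt libraries. All trex libraries lay above all wt libraries, 2.31-fold in the means of 0.905 ± 0.0798 TPM in trex libraries and 0.392 ± 0.108 TPM in wt libraries (SD, n = 4 each; exact two-sided permutation p = 0.0286). It was below the limit for testing across genes and rested on 25 to 28 reads in trex and 7 to 13 reads in wt. The libraries kept strand, but the strand setting of the read counting is not given in the sources used here. Reads of Dlx6 and of Dlx6os1 therefore cannot be told apart with certainty where they overlap.

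The other antisense genes were close to 0. Dlx1as had at most 2 reads in any library (exact permutation p = 0.6) and Dlx4os had 1 to 3 reads in trex libraries and 1 to 6 in wt libraries (exact permutation p = 0.229), while Dlx6os2 had none. Of the nearest protein-coding neighbours of the pairs, none was called. Metap1d, 2919 bp from Dlx1, averaged 10.9 TPM in trex and 9.37 TPM in wt (adjusted p = 0.298 in limma). Itga6, 198862 bp beyond Dlx2, averaged 64.7 TPM in trex and 49.6 TPM in wt (adjusted p = 0.110 in limma). Its adjusted p was 0.0364 without trex replicate 2 and up to 0.230 without another single library. Itga3, 43318 bp from Dlx3, averaged 42.0 TPM in trex and 32.1 TPM in wt (adjusted p = 0.102 in limma), and Tac4, beyond Dlx4, had no read. Near Dlx5 and Dlx6, Sem1 averaged 166.5 TPM in trex and 171.2 TPM in wt (adjusted p = 0.576 in limma) and Sdhaf3 11.6 TPM in trex and 11.3 TPM in wt (adjusted p = 0.930 in limma). These lie 284671 bp (Sem1) and 73919 bp (Sdhaf3) from the pair.

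**Figure D4:**
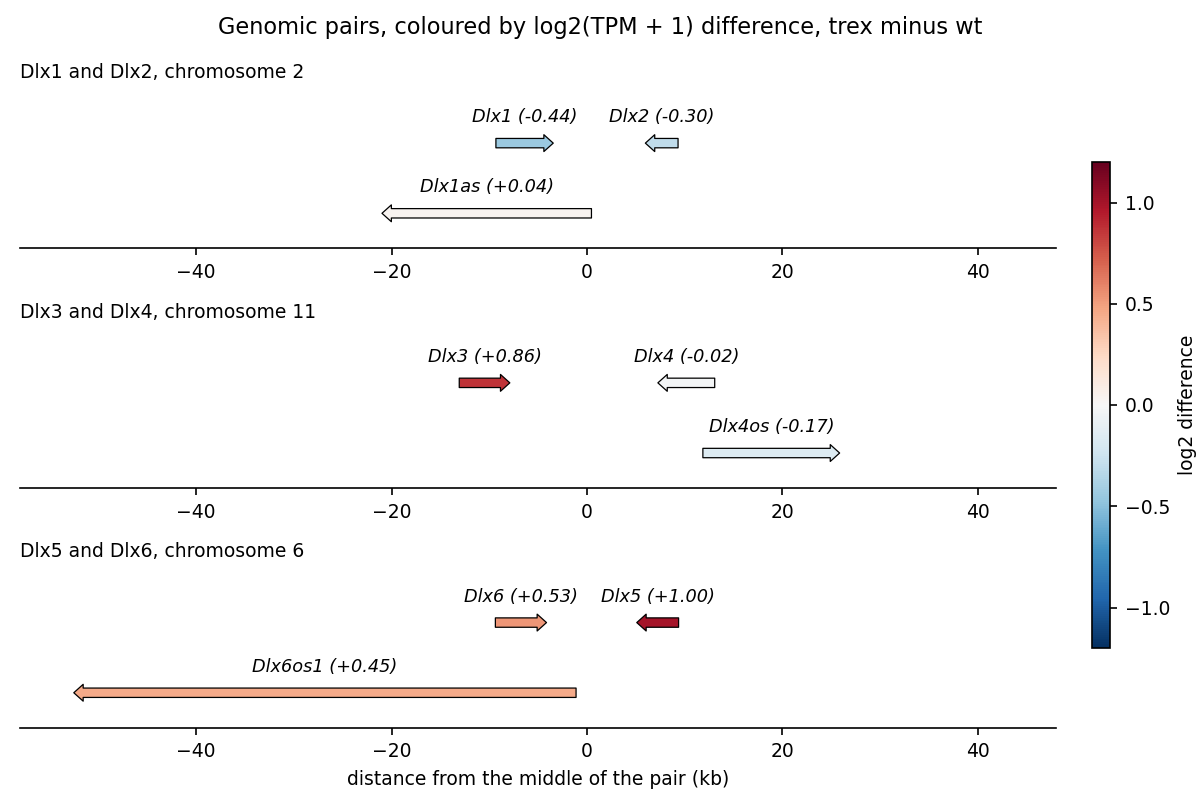
Positions and strands (arrows) of the Dlx genes and their annotated antisense genes, as distance in kb from the middle of each pair, coloured by the log2(TPM + 1) difference, trex minus wt. The colours run from -0.44 for Dlx1 to 1.00 for Dlx5, and Dlx6os1 (0.45) overlaps Dlx6.

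The genes whose levels followed each member most closely over the 8 libraries were found among 13092 tested and named genes. These correlations of log2(TPM + 1) describe libraries of 2 genotypes and contain the difference between them. Dlx1 was most like Cdhr1 (Pearson r = 0.994), Enc1 (0.990) and Srrm3 (0.989), which are known from neural or sensory cells. For Dlx2 the nearest were Dixdc1 (0.987), Trib2 (0.976) and Celsr3 (0.975). Dlx3 was most like Zbtb7b (0.991), Idua (0.987) and Itpr3 (0.985). Dlx5 was nearest to Irak3 (0.989), Ribc1 (0.980) and Daam2 (0.980), and Dlx6 to Armt1 (0.989), Oxr1 (0.987) and Gpcpd1 (0.984). The 5 sets of 3 genes had no gene in common, but sets this small cannot show that members follow different patterns. Between members r was 0.861 for Dlx1 with Dlx2 and 0.836 for Dlx5 with Dlx6. Dlx3 reached 0.839 with Dlx6 and 0.791 with Dlx5. Dlx1 and Dlx2 each correlated negatively with Dlx3, Dlx5 and Dlx6, from -0.751 to -0.478. Cdhr1, an example of the first set, held 0.281 to 0.522 TPM in trex and 1.30 to 3.19 TPM in wt, and the call was lost without trex replicate 3, trex replicate 4 or wt replicate 2 (adjusted p = 0.0222 in limma, up to 0.0835). Daam2, a Wnt pathway formin, held 22.8 to 32.0 TPM in trex and 16.9 to 18.2 TPM in wt (adjusted p = 0.0204 in limma, up to 0.0759, lost without trex replicate 3 or wt replicates 1, 2 or 3).

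Genes of the signals that act on ventral arch Dlx genes were next examined. Of 11 endothelin and Bmp pathway genes, all tested, 3 rose and none fell in trex, with a median log2 difference of 0.24, beside 0.04 over all tested genes. Over all tested genes 4.94% rose and 3.77% fell, and the counts of each list stand beside these shares. The lists were chosen with earlier results of these data known. Edn1, the ligand, held 24.2, 9.34, 12.3 and 17.1 TPM in trex libraries, against 9.29, 8.16, 8.33 and 10.6 TPM in wt libraries. Trex replicate 2 again lay within the wt range, and Edn1 was not called (log2 difference 0.65 ± 0.25 SE, adjusted p = 0.125 in limma). Its adjusted p in limma was 0.0293 without trex replicate 2 and up to 0.259 without another single library. Ece1, the enzyme that cuts the endothelin precursor, rose to 146 ± 18.3 TPM in trex, against 95.0 ± 6.25 TPM in wt (SD, n = 4 each; adjusted p = 0.0109 in limma). Ednra, the receptor on arch crest cells, averaged 30.9 TPM in trex and 25.7 TPM in wt (log2 difference 0.25, adjusted p = 0.0419 in limma), a call that held without trex replicate 1 or 2 and was lost without any of the other 6 libraries (up to 0.116). Quantile, median-of-ratios and voom scaling did not call Ednra either (adjusted p = 0.0803 to 0.108 in limma). Bmp4, which acts on ventral arch mesenchyme beside endothelin, held 95.5, 76.1, 88.8 and 100.2 TPM in trex libraries, against 55.0, 60.6, 51.1 and 52.6 TPM in wt libraries. The groups were separate, with a log2 difference of 0.70 ± 0.09 (SE; adjusted p = 0.0067 in limma). The calls on Ece1 and Bmp4 held without each library in turn.

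Ventral arch mesenchyme genes went in both directions. Of 12, 11 were tested, 4 rose and 3 fell (4.94% and 3.77% over all tested genes), with a median log2 difference of -0.06. Hand2, which lies downstream of endothelin and Dlx5 and Dlx6 in the mouse mandibular arch, held 54.3, 62.6, 89.9 and 91.6 TPM in trex libraries, against 25.8, 34.0, 35.8 and 51.7 TPM in wt libraries. All trex libraries were above all wt libraries, 2.03-fold in the means (adjusted p = 0.0345 in limma), but in trex the order of libraries was not that of Dlx5. Hand1, its relative in the most ventral arch and in lateral and heart mesoderm, held 16.1, 49.5, 77.7 and 109.9 TPM in trex libraries, against 5.62, 7.42, 11.4 and 13.8 TPM in wt libraries (adjusted p = 0.0328 in limma, and 0.0796 with voom on recovered reads). In trex both Hand genes stood in the order of the summed cardiomyocyte genes, which were 219, 250, 2083 and 2510 TPM in trex libraries, against 307, 1205, 646 and 2543 TPM in wt libraries. In wt replicate 4 all 3 values were the highest of the wt libraries, and the part of heart tissue in the Hand levels was not tested. Msx2, a Bmp target of the arch tip, averaged 33.6 TPM in trex and 23.5 TPM in wt (adjusted p = 0.0188 in limma). Pitx1, known from stomodeal ectoderm, mandible and hindlimb, averaged 2.28 TPM in trex and 0.279 TPM in wt (adjusted p = 0.0458 in limma). Pitx1 had 1 to 8 reads in wt libraries and passed the limit for testing only through trex. Its place among the 4 rises is therefore not read as support. The Pitx1 call held in only 2 of the fits without a single library (adjusted p up to 0.116 in limma).

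In the same list Barx1, a gene of arch and stomach mesenchyme, held 2.97, 4.35, 7.28 and 5.60 TPM in trex libraries, against 7.89, 27.7, 69.9 and 53.5 TPM in wt libraries. Its wt values spread widely, and its fall (adjusted p = 0.0400 in limma) was no longer called without 6 of the 8 libraries, the exceptions being trex replicate 2 and wt replicate 1. Gbx2, which also fell, averaged 16.9 TPM in trex and 27.6 TPM in wt (adjusted p = 0.0414 in limma). Msx1 averaged 89.6 TPM in trex and 73.1 TPM in wt (adjusted p = 0.224 in limma), and Gsc, a target of Dlx5 and Dlx6 in the mouse, was at most 0.695 TPM and not tested. The list counted 0 higher and 1 lower without trex replicate 3, trex replicate 4, wt replicate 2 or wt replicate 3, 1 higher and 2 lower without wt replicate 1, and 2 higher and 1 lower without wt replicate 4.

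Dorsal arch mesenchyme, where Dlx1 and Dlx2 act without Dlx5 and Dlx6, was represented by 8 genes, of which 1 rose and 2 fell, with a median log2 difference of -0.05. Pou3f3, a marker of dorsal arch mesenchyme, averaged 20.4 ± 7.04 TPM in trex libraries and 45.5 ± 6.28 TPM in wt libraries (SD, n = 4 each; adjusted p = 0.0181 in limma). It lay below the wt range in all 4 trex libraries, as did Six2, with 16.9 TPM in trex and 32.5 TPM in wt (adjusted p = 0.0336 in limma). Nr2f2, a nuclear receptor gene of the dorsal arch, rose slightly, to 68.5 to 71.5 TPM in trex, against 57.3 to 62.8 TPM in wt (adjusted p = 0.0312 in limma). That call was lost with quantile normalization, median-of-ratios scaling and voom on recovered reads (adjusted p = 0.0536 to 0.0656 in limma). Without trex replicate 4, wt replicate 1, wt replicate 2 or wt replicate 3, no gene of the list was called, and without trex replicate 3 or wt replicate 4 only 1 was, with trex lower. Pou3f3 is also a gene of the neural tube, and its cell source was not resolved in these tissue libraries.

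Among 16 genes of crest-derived arch mesenchyme, 15 were tested, 6 rose and none fell, with a median log2 difference of 0.26. The log2 difference was positive for 11 of the 15 and negative for the rest. Over all tested genes 4.94% rose and 3.77% fell. Twist1, needed for crest mesenchyme identity, averaged 330.3 ± 11.2 TPM in trex libraries and 255.0 ± 8.98 TPM in wt libraries (SD, n = 4 each; adjusted p = 0.0049 in limma). Sox9, the skeletal progenitor factor, averaged 61.2 TPM in trex and 43.7 TPM in wt (adjusted p = 0.0049 in limma), and Alx1 15.5 TPM in trex and 8.12 TPM in wt (adjusted p = 0.0096 in limma). These 3 calls held without each library in turn. Prrx1, a general mesenchyme factor, averaged 46.0 TPM in trex and 44.5 TPM in wt (adjusted p = 0.675 in limma), and Tfap2a, of crest and ectoderm, 15.1 to 29.8 TPM in trex and 11.0 to 14.3 TPM in wt (adjusted p = 0.103 in limma). The list counted 3 higher without wt replicate 2 and at least 5 without each other library.

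The Hox genes that mark the level of the arches were read for axial level only, and do not check how much arch tissue a library held. Hoxa2, which patterns the second arch, averaged 57.4 TPM in trex and 67.8 TPM in wt (adjusted p = 0.260 in limma), and Hoxa3, of the third arch, 30.1 TPM in trex and 30.3 TPM in wt (adjusted p = 0.964 in limma). Both were thus clearly present in both genotypes. Of the 5 genes only Hoxb3 was called, with 76.9 TPM in trex and 113.8 TPM in wt (adjusted p = 0.0122 in limma), and the call held without each library in turn. The median log2 difference was -0.18.

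Of 10 pharyngeal endoderm and pouch genes, 2 rose and 2 fell (4.94% and 3.77% over all tested genes), with a median of 0.28. Ripply3, a Tbx1 partner of the posterior pharynx that is induced by retinoic acid, held 9.62, 14.1, 14.7 and 13.6 TPM in trex libraries, against 35.8, 37.1, 40.2 and 36.9 TPM in wt libraries. It fell by 1.48 on the log2 scale (adjusted p = 0.0011 in limma) and was called without each library in turn. Fgf3, of pouches and hindbrain, averaged 13.9 TPM in trex and 3.94 TPM in wt (adjusted p = 0.0222 in limma), and Foxe1, of the thyroid primordium, 6.71 TPM in trex and 3.58 TPM in wt (adjusted p = 0.0377 in limma). Neither rise was called without wt replicate 2, and the list counted no rise without trex replicate 4, wt replicate 2, wt replicate 3 or wt replicate 4.

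Territories outside the arch mesenchyme in which Dlx genes are expressed were examined next. All 12 surface ectoderm and epithelium genes had a positive log2 difference, with a median of 0.58. The median was 0.37 without trex replicate 1, and the positive signs of Epcam, Esrp1 and Grhl2 rested on that library. There Epcam held 107.6 TPM, against 52.9 to 72.2 TPM in the other trex libraries and 59.5 to 71.9 TPM in wt. Of the 12 genes 3 rose, the keratin genes Krt8, Krt18 and Krt19, against 4.94% of all tested genes. The whole list of 12 summed to 977, 435, 628 and 761 TPM in trex libraries, against 328, 341, 417 and 416 TPM in wt libraries, without overlap. Keratins weigh heavily in these sums. Krt18 alone held 351, 164, 251 and 306 TPM in trex libraries, against 115, 130, 158 and 165 TPM in wt libraries. In the sums trex replicate 1 was highest and trex replicate 2 lowest of the trex libraries, as for Dlx3 and Dlx6. For Dlx5 trex replicate 1 was also highest, but trex replicate 4 was lowest. Krt19 averaged 90.4 ± 62.0 TPM in trex libraries and 17.7 ± 3.06 TPM in wt libraries (SD, n = 4 each; adjusted p = 0.0332 in limma), and Krt8 149 ± 45.0 TPM in trex and 67.3 ± 11.5 TPM in wt (adjusted p = 0.0243 in limma). Trp63, the defining factor of stratified epidermis, held 12.6, 7.04, 6.56 and 4.69 TPM in trex libraries, against 3.51, 3.95, 5.61 and 4.49 TPM in wt libraries (adjusted p = 0.139 in limma). Trex replicate 4 lay within the wt range for Trp63, and Epcam, a pan-epithelial gene, averaged 73.1 TPM in trex and 63.8 TPM in wt (adjusted p = 0.647 in limma). The keratin calls came to 1 without wt replicate 4 and to none without trex replicate 3, trex replicate 4, wt replicate 1, wt replicate 2 or wt replicate 3, and voom on recovered reads called only Krt8. The part of ectoderm in the Dlx differences was not tested.

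The otic vesicle list summed to 78.1, 24.4, 31.4 and 28.0 TPM in trex libraries, against 26.2, 20.8, 19.5 and 19.6 TPM in wt libraries. Trex replicate 1, the highest library for Dlx5, Dlx6 and Dlx3, stood far above the others. None of the 5 tested genes of 9 was called, with a median of 0.50, and Oc90, a defining otic gene, was listed at 0 in every library but trex replicate 3 (0.690 TPM). In the other 3 trex libraries the otic sums were 24.4 to 31.4 TPM and Dlx5 held 6.85 to 9.08 TPM. In wt libraries the otic sums were 19.5 to 26.2 TPM and Dlx5 held 3.57 to 4.44 TPM. The part of otic tissue in the Dlx levels was not tested.

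Of 8 genes of the limb bud and apical ridge, none rose and 1 fell, with a median of -0.00. The fall was that of En1, a gene of ventral limb ectoderm and also of the midbrain and spinal cord, with 1.43 TPM in trex and 5.41 TPM in wt (adjusted p = 0.0166 in limma, lost without wt replicate 2 or wt replicate 3, up to 0.0661). Sp8, of the apical ridge, averaged 14.3 TPM in trex and 14.9 TPM in wt (adjusted p = 0.649 in limma). Of 11 forebrain genes, 6 were tested and 2 fell, with a median of -0.25, and the list summed to 11.8 to 17.8 TPM in trex and 20.3 to 31.1 TPM in wt. Among them Gsx2, which is also expressed in the dorsal hindbrain and spinal cord, averaged 1.22 TPM in trex and 6.03 TPM in wt (adjusted p = 0.0013 in limma), and its call held without each library in turn. Otx2, of the forebrain and midbrain, went the other way, with 5.46, 0.535, 1.47 and 1.09 TPM in trex libraries, against 0.262, 0.125, 0.0812 and 0.408 TPM in wt libraries. The groups were separate but Otx2 was not called (adjusted p = 0.106 in limma, and 0.0409 to 0.223 without single libraries). Lhx2 overlapped, at 2.57 to 6.57 TPM in trex and 1.72 to 11.99 TPM in wt (adjusted p = 0.788 in limma), and Six3 and Rax were at most 0.238 TPM in any library.

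Low oxygen response genes had the highest median of the 13 lists and were uneven within trex. Of 8 genes, 6 rose and none fell (4.94% and 3.77% over all tested genes), with a median log2 difference of 1.28. Their summed level was 7729, 3386, 4957 and 6328 TPM in trex libraries, against 2445, 2547, 2617 and 2589 TPM in wt libraries. The trex libraries stood in the same order, replicate 1, 4, 3 and 2 from high to low, as for Dlx3 and Edn1. The order was replicate 1, 3, 2 and 4 for Dlx5, and replicate 1, 3, 4 and 2 for Dlx6. Egln3, an oxygen sensor enzyme, averaged 97.7 ± 52.1 TPM in trex libraries and 17.3 ± 2.25 TPM in wt libraries (SD, n = 4 each; adjusted p = 0.0198 in limma), Bnip3, of mitophagy, 297 TPM in trex and 66.2 TPM in wt (adjusted p = 0.0171 in limma), and the glycolytic gene Ldha 2988 TPM in trex and 1718 TPM in wt (adjusted p = 0.0142 in limma). The count of rises was 0 without wt replicate 2, 1 without trex replicate 4, wt replicate 1 or wt replicate 3, 3 without wt replicate 4 and 4 without trex replicate 3. The part of this response in the Dlx differences was not tested.

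Heart and liver genes varied widely between libraries of a genotype. Of the 8 cardiomyocyte genes, whose sums are given beside Hand1, none was called, with a median of -0.07. The 6 liver bud genes summed to 4.94, 25.1, 216 and 426 TPM in trex libraries, against 2.49, 2.46, 142 and 158 TPM in wt libraries, with no gene called and a median of 0.76. The libraries with little heart RNA included the highest of Dlx5, trex replicate 1, and so did those with little liver RNA. With sex as a covariate, of all the lists only the forebrain and pharyngeal lists kept a called gene, 1 each and lower in trex.

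**Figure D5:**
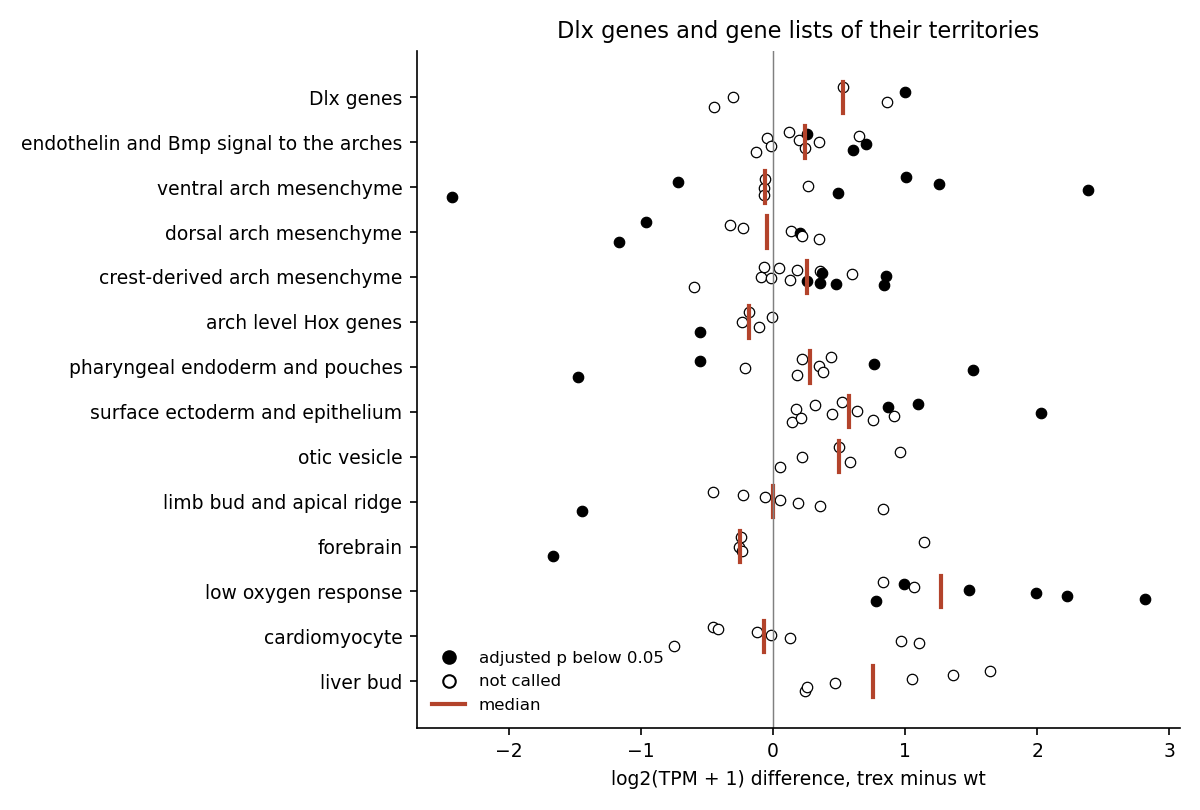
Log2(TPM + 1) difference, trex minus wt, of tested genes of the Dlx family and of 13 lists. Filled points mark an adjusted p below 0.05 and open points genes not called. A bar in each row marks the median of the tested genes of that row, and 2 list genes count in the medians but have no point. Low oxygen genes have the highest median (1.28), and the ventral arch list reaches from -2.43 (Barx1) to 2.38 (Hand1). All surface ectoderm genes lie right of 0, some of them only through trex replicate 1.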

How the data were processed

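RNA-seq was made from the vagal region of 4 trex and 4 wt mouse embryo samples, as poly-A selected stranded libraries per the labels' protocols. The authors deposited TPM values, 1 column per sample. CASAVA 1.8.2, STAR and mm10 were used, per the submitters' processing notes; the sources used here do not give the read counter, its strand setting or the annotation, and strand and paralog handling could move reads between overlapping or similar genes. Symbols, coordinates and exonic lengths came from GENCODE M21, which matched 55240 of 55421 identifiers.

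Multiplied by exonic length, 98.7% to 98.9% of the low values of a library (up to 200 reads) were whole reads within 0.001 read, which gave the depth of 20928981 to 23648646 reads and the reads per gene. They cover counting error only.

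Genes were tested two-sided with limma 3.58.1 under R 4.3.3 (lmFit, eBayes with trend) on log2(TPM + 1), over 15717 genes with a mean TPM of at least 1, with Benjamini-Hochberg adjustment over all of them. A log2 difference on this scale understates the change of weak genes. The step was checked on simulated data. Single values and differences between genes used exact two-sided permutation of the genotype labels.

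The members and gene lists were chosen with earlier results of these data known. Named were the Dlx genes, Rdh10, genes overlapping or next to the Dlx pairs, the 3 genes most correlated with each tested member, up to 3 called genes with the smallest p per list, and a set of arch and tissue genes whatever their result. Pitx1, Gbx2, Six3, Rax, Otx2, Lhx2, Epcam, Esrp1, Grhl2, Foxf2 and Sp8 were named after their values were seen. A pair of list genes stays in the counts and medians but is not reported here singly.

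The alternatives were other pseudocounts, filters, scalings and variance models, array weights, limma voom on recovered reads, a replicate block by order, sex as a covariate from Y-linked genes, each library left out and, added after the data were seen, the 6 libraries low in Y-linked transcripts.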

Additional observations from a re-analysis of the deposited data

Results flagged for a closer look

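In 13 of 146 sets of 4 values, 1 library stood apart from the other 3 by Dixon's criterion, which chance alone would meet in about 1 of 20 sets. No Dlx gene was among them, and 7 of the 13 were trex replicate 1. In that library Rdh10 held 106 TPM, against 62.7 to 69.0 TPM in the other trex libraries. Its Msx1 level was 120.9 TPM, against 77.4 to 82.1 TPM. Tfap2a stood at 29.8 TPM there, against 15.1 to 16.8 TPM, and Fgf3 at 25.2 TPM, against 9.97 to 10.3 TPM. Sem1 was 178.3 TPM, against 161.4 to 163.8 TPM. Ribc1 was 17.7 TPM, against 11.8 to 12.2 TPM, and the antisense gene Dlx1as 0.213 TPM, against 0.104 to 0.116 TPM.

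Among the other trex libraries, replicate 2 was low for Itga6 at 52.4 TPM, against 67.7 to 70.5 TPM in the rest. Replicate 3 was high for Trib2 at 34.7 TPM, against 27.7 to 28.5 TPM, and was the one library with Oc90, at 0.690 TPM. In wt, replicate 1 held 14.3 TPM of Tfap2a, against 11.0 to 11.4 TPM in the other wt libraries. Replicate 2 held 78.8 TPM of Bnip3, against 61.5 to 62.3 TPM. Replicate 3 was low for Dlx6os1 at 0.232 TPM, against 0.432 to 0.462 TPM.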

How the results depend on the processing

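The number of genes called, 1369 (777 higher and 592 lower in trex), was 5524 with array weights (3362 higher, 2162 lower), 694 with no filter (344 higher, 350 lower), 687 with the replicate block (404 higher, 283 lower), 39 with sex as a covariate (9 higher, 30 lower) and 8 in the 6 libraries low in Y-linked transcripts (2 higher, 6 lower). Without single libraries it ran from 201 (without wt replicate 2) to 2911 (without trex replicate 2), with 84 to 1702 higher and 117 to 1209 lower. It was also under 1369 by over 1.5 times without trex replicate 3 (576), trex replicate 4 (369), wt replicate 1 (466), wt replicate 3 (403) or wt replicate 4 (606). The split into higher and lower moved with scaling, to 633 higher and 739 lower with quantile normalization, 692 and 692 with median-of-ratios, 633 and 809 with voom on recovered reads, and 632 and 670 without globin, mitochondrial and sex chromosome genes. The cause was not tested.

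With a filter at a mean TPM of 5, Dlx1 and Dlx6 were not tested. No alternative that gave a value reversed the direction of Dlx1, Dlx2, Dlx3, Dlx5 or Dlx6. Dlx1 passed 0.05 with array weights (-0.36), median-of-ratios (-0.47), no variance trend (-0.44), quantile normalization (-0.52) and voom on recovered reads (-0.60), and Dlx3 (0.75) and Dlx6 (0.59) with array weights. Dlx5 no longer passed with sex as a covariate or in the 6 libraries low in Y-linked transcripts, which give the same estimate (1.03). The 6 libraries leave out wt replicates 2 and 3, and why the call was lost was not tested. Leaving out single libraries gave 0.67 to 1.09 for Dlx3, 0.84 to 1.12 for Dlx5 and 0.41 to 0.68 for Dlx6. Among the ratios such ranges were 0.80 to 1.01 for Dlx3 over Dlx4, 0.36 to 0.59 for Dlx5 over Dlx6 and 0.62 to 0.95 for Dlx3 and Dlx4 minus Dlx1 and Dlx2. With a pseudocount of 5, Dlx5 over Dlx6 was 0.39 (exact permutation p = 0.0286), and with 0.1, Dlx3 and Dlx4 minus Dlx1 and Dlx2 was 0.83 (exact permutation p = 0.143).

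The labels number the trex libraries 1 to 4 and the wt libraries 5 to 8, so they share no number, and the replicate block set them side by side by order only. It pairs nothing, and calls lost under it say nothing of a weaker difference. With the replicate block the values stayed at 0.89 for Dlx3 over Dlx4, 1.14 for Dlx5 and Dlx6 minus Dlx1 and Dlx2 and 0.79 for Dlx3 and Dlx4 minus Dlx1 and Dlx2, each at an exact p of 0.125, the smallest that 4 pairs allow.

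Genes with differences near 0 changed sign. Prrx1 was -0.0047 with voom, and Hoxa3 was 0.028 with sex as a covariate and in the 6 libraries low in Y-linked transcripts. Sdhaf3 was -0.014 with median-of-ratios, -0.061 with quantile normalization, -0.027 with voom and -0.019 without globin, mitochondrial and sex chromosome genes. Without single libraries Hoxa3 ran from -0.081 to 0.042 and Sdhaf3 from -0.074 to 0.13. Depth limits Dlx4 and the antisense genes, which had at most 28 reads in a library.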
